A study of Mus musculus with 10 samples.

Results

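The genes described here are 10 components of the contractile machinery of skeletal and heart muscle, followed in mouse aorta. They were taken by symbol from the 35667 genes counted in each library: the giant scaffold genes Ttn and Neb, the myosin heavy chains Myh6 and Myh7, the troponin genes Tnnt1, Tnnt2, Tnnt3 and Tnni1, the calcium store gene Casq1 and the creatine kinase gene Ckm. All 10 were found, each as 1 gene. RNA was sequenced from aortas of C57BL/6 mice aged 12 weeks, in 5 libraries labelled Ovgp1 knockout (KO) and 5 labelled wild type (WT). Ovgp1 encodes oviductal glycoprotein 1. Titles name Ovgp1 for every KO library, while the genotype field gives Ovgp2 to Ovgp5 for KO replicates 2 to 5. The labels do not say how the allele was made, whether any tissue around the vessel was removed, or how many animals stand behind a group.

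In striated muscle, myosin thick filaments pull on actin thin filaments within repeating units, the sarcomeres. Titin spans the unit as a spring and scaffold, nebulin runs along the thin filament of skeletal muscle, and troponin T and troponin I pass the calcium signal to the thin filament. Calcium comes from the sarcoplasmic reticulum, where calsequestrin holds it. Smooth muscle, the main muscle of the aortic wall, has no sarcomeres and switches on contraction through phosphorylation of its myosin.

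Total counts ran from 24434745 to 26694590 in the libraries labelled KO and from 21242030 to 24396394 in those labelled WT. Ovgp1 itself went against its label. Its counts-per-million level with TMM-scaled library totals (CPM) was 17.8 to 21.9 in KO libraries, against 1.98 to 4.69 in WT libraries, so every direction below follows labels that this gene does not bear out. The libraries labelled KO stood apart from the others in a further way, for they differed from each other by little more than counting error. Over 12509 genes the chi-square per degree of freedom, which is 1 for pure counting error, was 1.77 to 3.25 for pairs of KO libraries and 11.0 to 154 for pairs of WT libraries. Results are therefore given from 5 against 5 libraries and, where stated, also from a fit with all KO reads pooled as 1 sample. The spread of that pooled fit is taken from the WT libraries. The share of counts from the mitochondrial genome was 7.61% to 7.88% in KO and 6.75% to 16.2% in WT, highest in WT replicates 1 and 3. Smooth muscle markers were abundant in each library: Acta2 had 22658 ± 223 CPM in KO and 19869 ± 4726 CPM in WT, and Myh11 had 9077 ± 38.4 CPM in KO and 8642 ± 1067 CPM in WT (SD, n = 5 each).

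In the test of 5 against 5 libraries, 1 of the 10 genes changed: Tnnt1, slow skeletal troponin T, was lower in the libraries labelled KO. In such bulk RNA, fewer cells of a type and less RNA per cell cannot be told apart. Over all genes that test called 14.3% of 15710, with 6.84% higher and 7.43% lower in KO, so 1 of the 8 genes with enough counts to test is near the background. Tnni1 and Myh7 had too few counts to be tested. With pooled KO 0 of the 8 passed and 0 had an unadjusted p under 0.05; the background was 0.0446% of genes in either direction, with 0.0446% higher and 0% lower in KO. For 7 of the 10 genes the whole KO range lay inside the WT range, all but Neb, Tnnt1 and Tnni1. The share of all genes for which this holds was not counted, so whether the count is particular to these genes cannot be told. The groups were fully separated for 0 of the 10 genes with KO above and for 0 with KO below, while over all tested genes these shares were 7.38% and 7.22%. DESeq2 called 2 of the 8, Tnnt1 and Neb, with a background of 18.9%. Of all calls, 1075 were higher and 1167 lower in KO with TMM scaling. With the library total alone 1561 were higher and 493 lower, with upper quartile factors 1319 were higher and 741 lower, and with the total without mitochondrial genes 1270 were higher and 909 lower. No sign among the 8 genes turned under these scalings or with RLE factors.

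**Figure D1:**
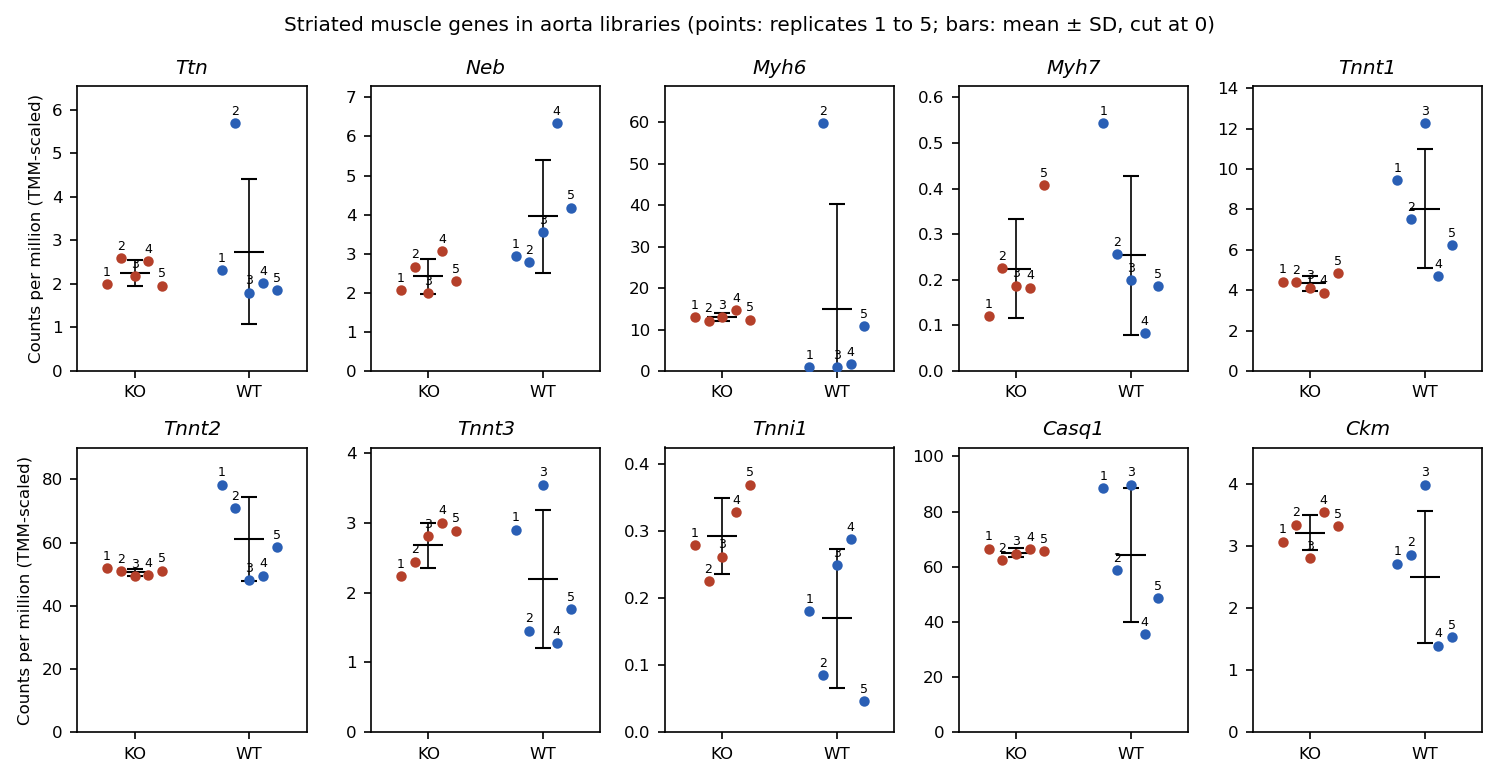
Level of the 10 striated muscle genes in CPM in 5 libraries labelled KO (red, left) and 5 labelled WT (blue, right), numbered by replicate, with mean ± SD cut at 0. The KO points lie close together for Casq1, Tnnt2 and Myh6, and WT replicate 2 stands far above the other libraries for Myh6 and Ttn.

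**Figure D2:**
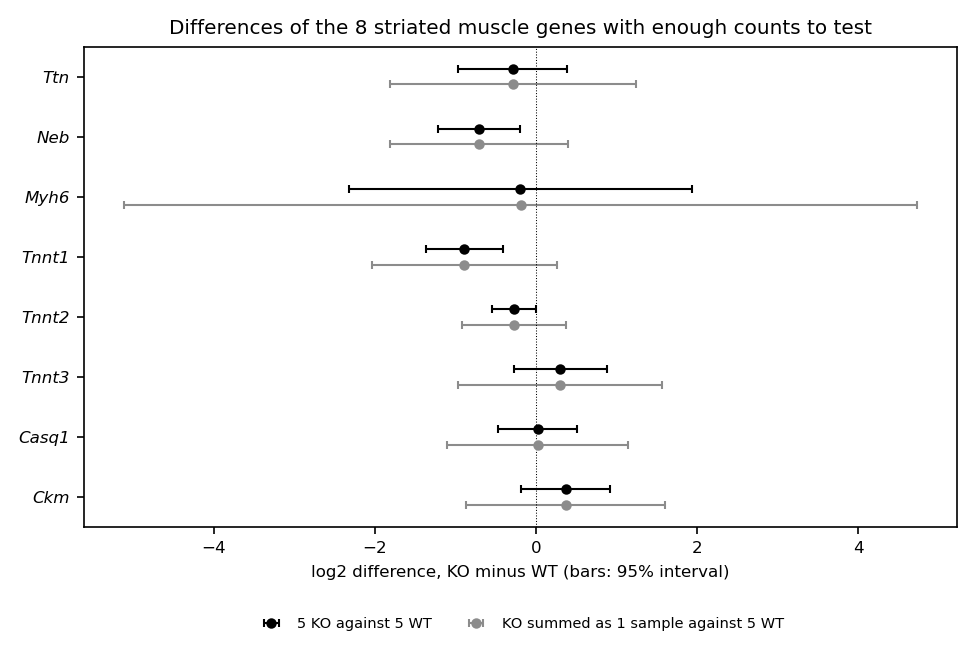
The log2 difference, KO minus WT, with its 95% interval for the 8 genes tested, from 5 against 5 libraries (black) and with the KO counts summed into 1 sample (grey). With KO as 1 sample every interval spans 0, and that of Myh6 is the widest.

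The 10 genes differed far more from each other than between the groups. Per kilobase of exon, taken over all annotated exons of a gene, Casq1 was the most abundant, with 33.4 CPM per kb in KO and 32.9 CPM per kb in WT. That length was 7.75 kb for Tnnt2 and 1.95 kb for Casq1. It can exceed the length of the transcripts present, so the order given here depends on the annotation. Tnnt2 followed at 6.53 CPM per kb in KO and 7.88 CPM per kb in WT, and the ranges of Casq1 and Tnnt2 did not overlap in either group. Tnnt1 (1.97 CPM per kb in KO, 3.65 in WT), Myh6 (1.94 in KO, 2.21 in WT) and Tnnt3 (1.69 in KO, 1.38 in WT) formed a middle group, each overlapping its neighbour in both groups. Ckm came next at 1.11 CPM per kb in KO and 0.859 CPM per kb in WT, overlapping Tnnt3 in WT. The 2 scaffold giants and the remaining genes were at the bottom: Neb had 0.0910 CPM per kb in KO and 0.149 in WT, Tnni1 had 0.0814 in KO and 0.0473 in WT, Myh7 had 0.0260 in KO and 0.0294 in WT, and Ttn had 0.0192 in KO and 0.0234 in WT. Ranges of Neb and Tnni1 overlapped in KO but not in WT, and those of Myh7 and Ttn overlapped in both groups. By counts alone Ttn would seem as abundant as Tnnt3, since its exons cover 117 kb against 1.58 kb for Tnnt3. For scale, Acta2 had 10318 CPM per kb in KO and 9048 CPM per kb in WT. Casq1 and Tnnt2 together made up most of the summed counts of the 10 genes, with 44.2% to 45.7% from Casq1 and 33.8% to 36.0% from Tnnt2 in KO, and 27.9% to 54.6% from Casq1 and 29.3% to 48.2% from Tnnt2 in WT.

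**Figure D3:**
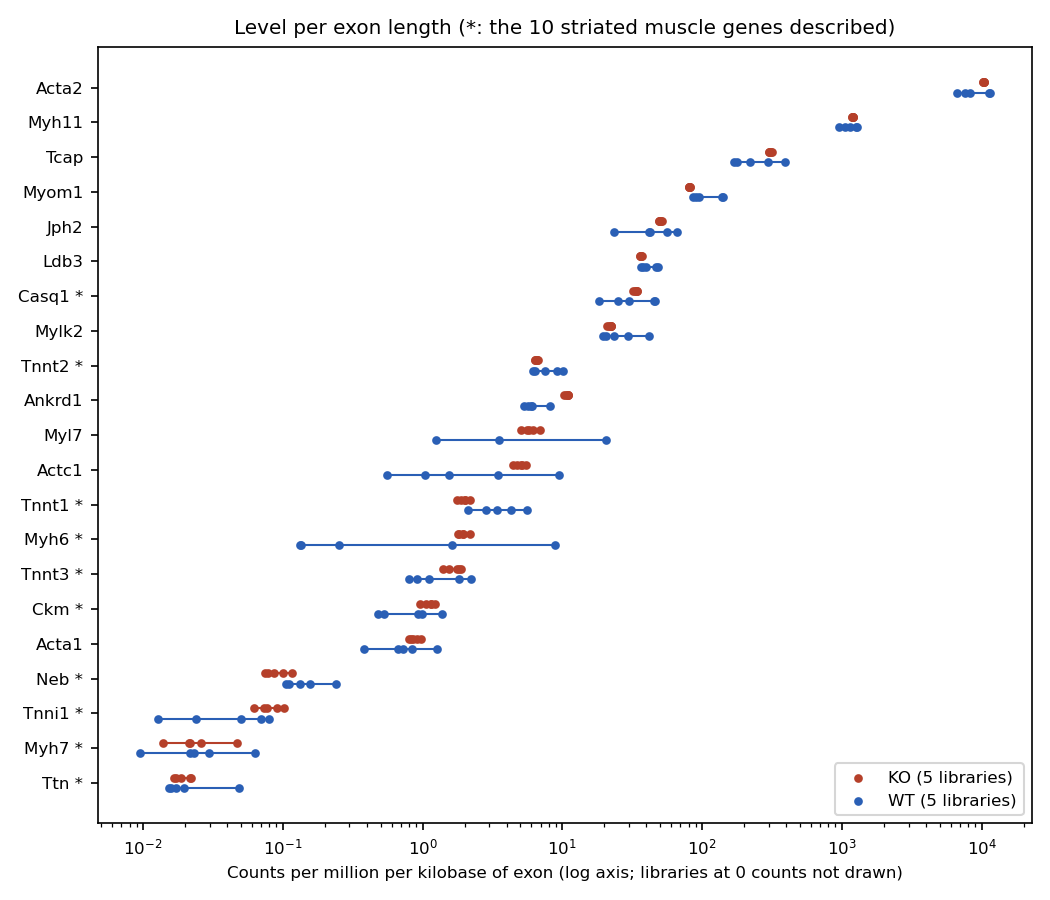
CPM per kilobase of exon on a log axis, with each library as a point, KO (red) above WT (blue), for the 10 striated muscle genes (marked with an asterisk) and other muscle genes. Casq1 lies between Ldb3 and Mylk2, and Ttn, Myh7, Tnni1 and Neb lie at the bottom.

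Promoter windows of 4 genes are shown because they carry the results: Casq1 and Tnnt2 were the most abundant, Tnnt1 was the one called, and Myh6 varied most between libraries. The windows hold 250 bases before to 50 bases after a RefSeq start in GRCm38.p6 and read 5′ to 3′ on the strand of the gene. Capitals mark the motifs searched on both strands: the E-box CAGCTG bound by myogenic factors, the muscle element M-CAT (CATTCC), the TATA box TATAAA, the CArG box of serum response factor and the MEF2 site.
Casq1, chr1:172219846-172220145, minus strand: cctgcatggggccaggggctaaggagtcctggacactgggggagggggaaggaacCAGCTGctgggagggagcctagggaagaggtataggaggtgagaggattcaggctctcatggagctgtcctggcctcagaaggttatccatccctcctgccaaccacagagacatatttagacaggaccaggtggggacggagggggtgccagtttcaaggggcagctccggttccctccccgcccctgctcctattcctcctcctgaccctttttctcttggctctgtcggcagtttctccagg
Tnnt2, chr1:135836084-135836383, plus strand: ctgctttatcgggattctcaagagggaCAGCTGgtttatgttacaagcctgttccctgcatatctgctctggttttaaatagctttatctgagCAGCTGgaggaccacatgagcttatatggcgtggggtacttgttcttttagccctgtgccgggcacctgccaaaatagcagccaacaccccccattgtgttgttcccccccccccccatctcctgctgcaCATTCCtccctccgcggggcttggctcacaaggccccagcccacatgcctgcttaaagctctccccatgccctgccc
Tnnt1, chr7:4515926-4516225, minus strand: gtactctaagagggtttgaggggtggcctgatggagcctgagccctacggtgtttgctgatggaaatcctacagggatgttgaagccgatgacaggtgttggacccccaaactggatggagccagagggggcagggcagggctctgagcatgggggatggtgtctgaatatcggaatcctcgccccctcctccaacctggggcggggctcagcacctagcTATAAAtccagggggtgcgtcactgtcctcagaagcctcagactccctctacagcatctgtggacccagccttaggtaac
Myh6, chr14:54966558-54966857, minus strand: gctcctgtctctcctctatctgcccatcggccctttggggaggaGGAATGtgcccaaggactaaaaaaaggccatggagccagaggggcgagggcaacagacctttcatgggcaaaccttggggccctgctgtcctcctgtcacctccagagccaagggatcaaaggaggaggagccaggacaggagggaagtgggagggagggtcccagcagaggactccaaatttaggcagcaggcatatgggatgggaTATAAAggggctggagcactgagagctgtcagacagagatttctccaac
In these windows Casq1 thus had 1 E-box, and Tnnt2 had 2 E-boxes and an M-CAT. Tnnt1 had a TATA box match, and Myh6 had an M-CAT and a TATA box match. The TATA box match of Tnnt1 lay before the RefSeq start, while that of Myh6 lay just after the start used here. Windows were matched for 8 of the 10 genes, all but Neb and Tnnt3. Over their windows the E-box was found in 4 genes, M-CAT in 4, the TATA box in 2, the MEF2 site in 1 (Ttn) and the CArG box in 0. A gene counts here if any of its windows held the motif, and Tnnt2, Tnni1 and Myh7 had 2 windows each. The shares that follow are of single windows, so the units differ. Of 32851 RefSeq windows of 300 bases, 16.3% held this E-box, 14.7% M-CAT, 13.6% the TATA box, 1.63% the CArG box and 0.557% the MEF2 site. A match describes letters in the window and does not show binding.

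Among the scaffold genes, Ttn (ENSMUSG00000051747; GRCm38 chromosome 2, 76703980 to 76982547), which encodes titin, had 1.99, 2.59, 2.17, 2.52 and 1.96 CPM in KO replicates 1 to 5 and 2.31, 5.69, 1.80, 2.02 and 1.86 CPM in WT replicates 1 to 5. WT replicate 2 was high and the other 4 WT libraries lay within or near the KO range. The log2 difference was -0.29 (SE 0.31, edgeR adjusted p = 0.582) and the 95% interval of the fold 0.513 to 1.31. Without WT replicate 2 the log2 difference was 0.18 (adjusted p = 0.463), the opposite sign. The counts behind these values were 50 to 69 per KO library and 36 to 133 per WT library, spread over 345 exon blocks.

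Neb (ENSMUSG00000026950; chromosome 2, 52136647 to 52378474), which encodes nebulin, had 2.07, 2.67, 1.99, 3.07 and 2.29 CPM in KO and 2.94, 2.78, 3.54, 6.34 and 4.18 CPM in WT. WT replicates 4 and 5 were highest, and the groups overlapped between 2.78 and 3.07 CPM. The log2 difference of -0.71 (SE 0.23, edgeR adjusted p = 0.0620) did not pass, and with KO as 1 sample the 95% interval of the fold was 0.284 to 1.32. It passed with DESeq2 (adjusted p = 0.0275), without the low-count filter (0.0430), without WT replicate 1 (0.0452) and without WT replicate 2 (0.0327). Without WT replicates 4 and 5 the log2 difference was -0.35 (adjusted p = 0.213). Brown adipocyte markers were also highest in those libraries, with a summed level of 762 CPM in WT replicate 4 and 549 CPM in WT replicate 5, against 182 to 200 CPM in KO and 50.5 to 178 CPM in the other WT libraries. None of the 7 brown adipocyte markers was at 0, and their part in the Neb values was not tested. The gene with the nearest profile to Neb over the 10 libraries, by the root mean square difference of centred log2 CPM, was Fam195a (0.18 on the log2 scale), followed by Midn (0.21) and Rab20 (0.23).

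Of the heavy chains of cardiac myosin, Myh6 (ENSMUSG00000040752; chromosome 14, 54941921 to 54966927), the fast alpha chain of mouse atria and ventricles, had the widest spread of the 10 genes. It had 13.04, 12.1, 13.03, 14.6 and 12.4 CPM in KO replicates 1 to 5. In WT replicates 1 to 5 it had 0.906, 59.8, 0.898, 1.69 and 10.9 CPM, which is 20, 1399, 18, 41 and 234 counts. WT replicate 2 thus held 81.7% of all WT counts of Myh6, and the KO libraries lay below it and above the other 4 WT libraries. The highest WT value was 66.6 times the lowest, while the KO libraries differed by 1.21-fold. The log2 difference was -0.19 (SE 0.96, edgeR adjusted p = 0.920), with a 95% interval of 0.2003 to 3.82 for the fold. Leaving out WT replicate 2 gave 1.88 (adjusted p = 0.0964), limma-voom 1.68 (adjusted p = 0.191) and the fit with a replicate block 1.45 (adjusted p = 0.428), so no direction can be given. With KO as 1 sample the interval was 0.0288 to 26.6.

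The genes whose profiles lay nearest to that of Myh6 were Myl7, the atrial regulatory light chain (root mean square difference 0.75 on the log2 scale), Actc1, cardiac alpha-actin (0.76), and Sln, sarcolipin, which restrains the calcium pump in atria (0.77). Myl7 had 4.11, 3.31, 3.41, 3.66 and 2.996 CPM in KO replicates 1 to 5. It had 12.0, 0.741 and 2.09 CPM in WT replicates 2, 4 and 5 and 0 counts in WT replicates 1 and 3, where 3 counts would be 0.1359 and 0.1497 CPM. Actc1 had 7.15 to 8.84 CPM in KO and 1.68, 15.3, 0.898, 2.51 and 5.62 CPM in WT replicates 1 to 5. Sln had 10 to 16 counts in KO and 1, 62, 1, 4 and 7 counts in WT replicates 1 to 5. For all 3 genes, as for Myh6, WT replicate 2 was the highest of the 10 libraries and the KO libraries lay above the other 4 WT libraries. Mb (myoglobin), Mybpc3 (cardiac myosin-binding protein C) and Mybphl, set beside Myh6 after their values were seen, were also highest in WT replicate 2, with 71.9%, 73.0% and 73.0% of their WT counts there. Other genes of cardiac type were less uneven: Myl4, an atrial light chain, and Tnni3, cardiac troponin I, were also highest in WT replicate 2 but with 35.5% and 37.5% of their WT counts there. Myl4 had 8.91 to 10.3 CPM in KO and 11.2, 18.9, 9.73, 6.30 and 9.80 CPM in WT replicates 1 to 5, and Tnni3 had 3.53 to 4.95 CPM in KO and 4.35, 9.62, 5.69, 3.01 and 4.27 CPM in WT replicates 1 to 5. For neither did the KO libraries lie above the other 4 WT libraries. The mean KO level was 21.8% of that in WT replicate 2 for Myh6, 29.1% for Myl7, 52.5% for Actc1, 18.2% for Sln, 19.6% for Mb, 33.3% for Mybpc3 and 27.9% for Mybphl. None of these 9 genes passed the test between the groups. The list of 7 cardiomyocyte markers had a summed level of 15.6 to 18.3 CPM in KO and 6.34, 39.9, 7.09, 6.67 and 12.8 CPM in WT replicates 1 to 5. In that list 4 of 7 markers were at 0 in some library, and Myl2, Myl3 and Nppa had at most 11 counts in any library.

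Myh7 (ENSMUSG00000053093; chromosome 14, 54970684 to 54994626), the slow beta chain of ventricle and slow skeletal fibres, lies beside Myh6 and had 3 to 11 counts in KO libraries and 2 to 12 counts in WT libraries. At this depth no difference was detectable, and without the low-count filter the 95% interval of the fold was 0.440 to 1.95. The pair are near-identical copies in part: 20.2% of the 50-base stretches of Myh6 transcripts also occur in Myh7. Their separate values are therefore uncertain, but in WT replicate 2 Myh6 had 1399 counts and Myh7 had 6. With both genes summed the log2 difference of Myh6 kept its sign and did not pass.

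**Figure D4:**
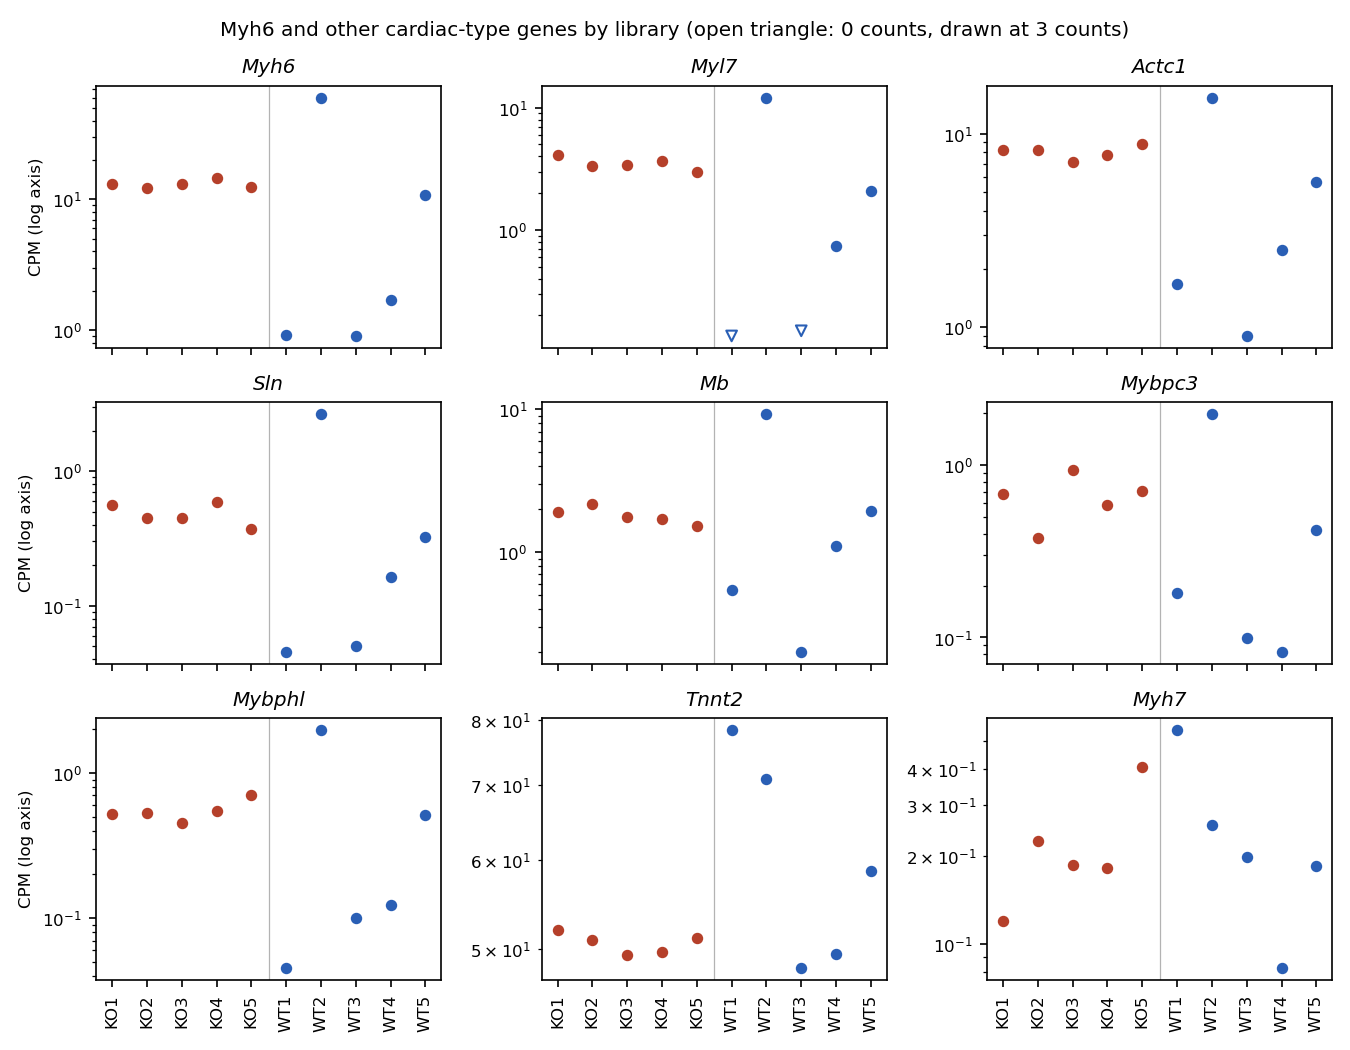
CPM on a log axis by library, KO (red) left of WT (blue), for Myh6, 6 other cardiac-type genes, and Tnnt2 and Myh7. From Myh6 to Mybphl the highest point is WT replicate 2 and the KO libraries lie above WT replicates 1, 3 and 4, while in Tnnt2 and Myh7 WT replicate 1 is highest. Open triangles stand for 0 counts and are drawn at 3 counts.

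Of the troponin genes, Tnnt1 (ENSMUSG00000064179; chromosome 7, 4504570 to 4516382), which encodes troponin T of slow skeletal fibres, fell. It had 4.43, 4.399, 4.12, 3.87 and 4.85 CPM in KO and 9.47, 7.53, 12.3, 4.69 and 6.22 CPM in WT. The groups overlapped only in that KO replicate 5 lay above WT replicate 4. The log2 difference was -0.89 (SE 0.22, edgeR adjusted p = 0.0207), a fold of 0.541 with a 95% interval of 0.388 to 0.754. The two-sided exact permutation test gave p = 0.0159 (0.0855 adjusted over all genes). When KO was pooled the interval widened to 0.243 to 1.20 and the adjusted p was 0.999. The call was lost without KO replicate 1 (0.0514), 2 (0.0516), 3 (0.0540) or 4 (0.0576), while the log2 difference kept within -0.85 to -0.89 in those fits. WT replicates 1 and 3, which were highest for Tnnt1, were also the libraries with the highest mitochondrial share. The order of the WT libraries for Tnnt1 was that of the summed smooth muscle markers too: 36680 to 37329 CPM in KO and 40468, 32706, 40561, 26766 and 29673 CPM in WT replicates 1 to 5. The part of either in the Tnnt1 result was not tested. Without WT replicates 1 and 3 the log2 difference was -0.49 (adjusted p = 0.0342), and without WT replicates 4 and 5 it was -1.17 (adjusted p = 0.00110). The nearest profile was that of Samd1 (0.13 on the log2 scale), with 4.53 to 5.36 CPM in KO and 5.06 to 12.6 CPM in WT.

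Tnnt2 (ENSMUSG00000026414; chromosome 1, 135836354 to 135852260), cardiac troponin T, had 52.0, 50.9, 49.4, 49.8 and 51.2 CPM in KO and 78.4, 70.9, 48.1, 49.6 and 58.7 CPM in WT. WT replicates 1 and 2 were high, and WT replicates 3 and 4 lay at the level of the KO libraries. The log2 difference was -0.27 (SE 0.12, edgeR adjusted p = 0.166), with a 95% interval of the fold of 0.688 to 0.999, or 0.529 to 1.30 with KO as 1 sample. Unlike Myh6, Tnnt2 was abundant in WT replicates 1 and 3, where Myl7 had 0 counts. Its nearest profiles were those of Ntf3, a neurotrophin gene (0.09), Hspb6, a small heat shock protein abundant in muscle (0.09), and Tcf4 (0.09 on the log2 scale).

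Tnnt3 (ENSMUSG00000061723; chromosome 7, 142498836 to 142516009), troponin T of fast skeletal fibres, had 2.23, 2.44, 2.81, 2.998 and 2.88 CPM in KO and 2.90, 1.45, 3.54, 1.28 and 1.76 CPM in WT. The KO libraries lay within the WT range, and the log2 difference was 0.30 (SE 0.26, edgeR adjusted p = 0.491). Without WT replicates 1 and 3 it was 0.85 (adjusted p = 0.00420). Tnni1 (ENSMUSG00000026418; chromosome 1, 135779434 to 135810989), troponin I of slow skeletal fibres, had 6 to 10 counts in KO and 1 to 7 counts in WT and was not tested; without the low-count filter its fold had a 95% interval of 0.841 to 3.68. The slow partners Tnnt1 and Tnni1 thus stood far apart in level, at 1.97 against 0.0814 CPM per kb in KO and 3.65 against 0.0473 CPM per kb in WT.

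Casq1 (ENSMUSG00000007122; chromosome 1, 172209894 to 172219868) encodes calsequestrin 1, the calcium-binding protein of the sarcoplasmic reticulum of skeletal muscle. It had 66.5, 62.4, 64.7, 66.5 and 65.6 CPM in KO and 88.5, 58.7, 89.7, 35.5 and 48.6 CPM in WT. The KO libraries differed by 1.06-fold, and the WT libraries by 2.53-fold around nearly the same mean. The log2 difference was 0.02 (SE 0.22, edgeR adjusted p = 0.961), with a 95% interval of the fold of 0.725 to 1.42, or 0.466 to 2.21 with KO as 1 sample, which bound the size of any change. Without WT replicate 4 the log2 difference was -0.13, and without WT replicate 5 it was -0.06. WT replicates 1 and 3 were high and WT replicates 4 and 5 low, the same order over the WT libraries as for the 7 smooth muscle markers and Tnnt1. Brown and white adipocyte markers were highest in WT replicates 4 and 5, and the white and general adipocyte list had 1719 and 1314 CPM there, against 692 to 719 CPM in KO and 472 to 687 CPM in the other WT libraries. The part of either list in the Casq1 values was not tested. The nearest profiles to Casq1 were those of Srpk3, a muscle protein kinase gene (0.10), Csrp2, a LIM protein of smooth muscle (0.11), and Haus8 (0.11 on the log2 scale). An antisense gene, Gm17224, overlaps 7.996% of the Casq1 exon length and had at most 6 counts in any library. The cardiac paralogue Casq2 had 24 to 49 counts in KO and 4 to 37 counts in WT.

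Ckm (ENSMUSG00000030399; chromosome 7, 19404776 to 19422841), the muscle creatine kinase that buffers ATP at the sarcomere, had 3.07, 3.35, 2.81, 3.55 and 3.33 CPM in KO and 2.72, 2.87, 3.99, 1.40 and 1.53 CPM in WT. WT replicates 4 and 5 were lowest, as for Casq1, and the groups overlapped. The log2 difference was 0.37 (SE 0.25, edgeR adjusted p = 0.360). An antisense gene, A930016O22Rik, overlaps 15.5% of the Ckm exon length and had 8 to 19 counts in KO and 3 to 12 counts in WT. The sources used here do not state whether strand was used in counting, so reads of that stretch cannot be told apart.

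**Figure D5:**
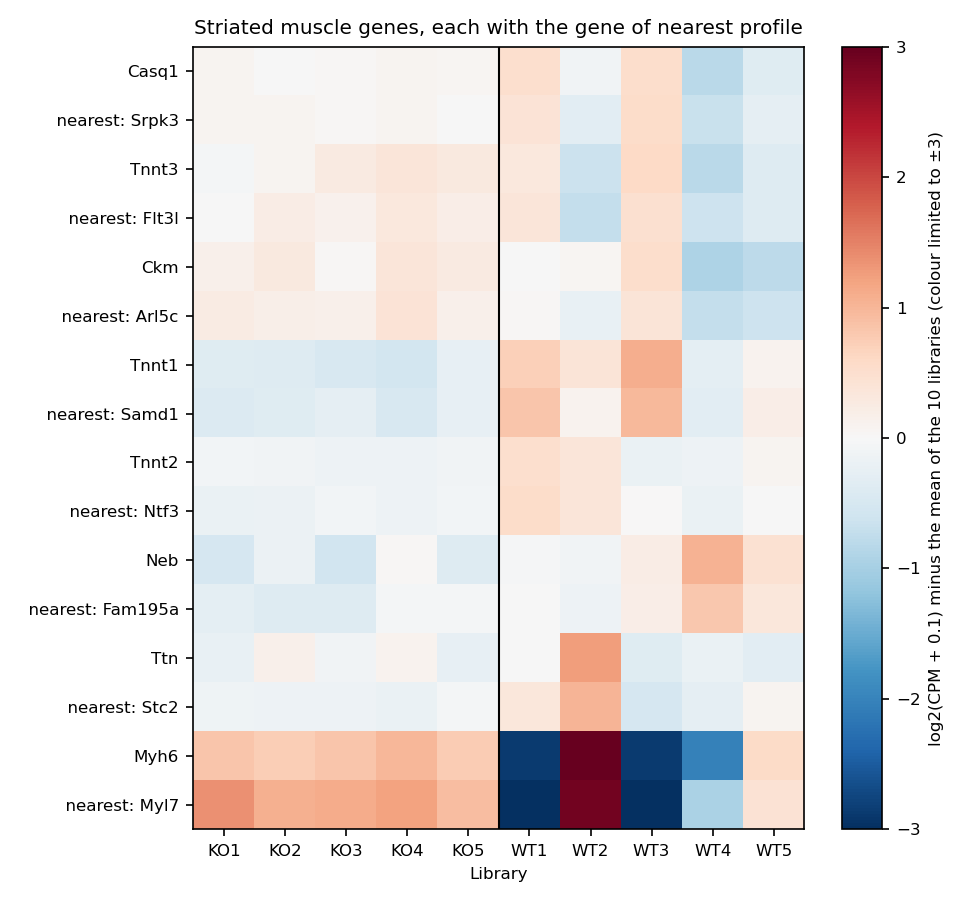
Colour gives log2(CPM + 0.1) minus the mean of the 10 libraries, KO left of WT, for the 8 tested genes, each followed by the gene of nearest profile. Casq1 and Ckm are lowest in WT replicates 4 and 5, Tnnt3 is low in WT replicates 2, 4 and 5, Neb is high in WT replicates 4 and 5, Tnnt1 is high in WT replicates 1 and 3, and Myh6 has its highest and lowest values within WT.

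Beside the 10, 7 lists of other muscle genes, with 107 genes in the files, were followed, and none of the 10 is among them. Of their 57 tested genes 5 rose and 0 fell in the test of 5 against 5 libraries, 8.77% against the background of 14.3%; the median log2 difference was 0.10, against -0.02 over all genes tested. That 0 fell depended on the setting: 6 were higher and 6 lower without WT replicates 4 and 5, 11 higher and 5 lower without WT replicates 1 and 3, 7 higher and 4 lower without the low-count filter, and 8 higher and 2 lower with DESeq2. Of the 19 tested genes of Z-disc, M-band and scaffold, 4 rose and 0 fell: Ankrd1, Nrap, Klhl41 and Lmod3. That is 21.1%, against 6.84% of all tested genes called higher and 14.3% called in either direction. The lists were chosen with earlier results of these data known, and no set test was run. Over the whole list, KO values lay fully above WT values for 5 of the 19 and fully below for 1. Separation of the called genes is not independent of the call. Ankrd1, a stretch-responsive partner of titin, had 29.4 to 31.6 CPM in KO and 15.3 to 23.5 CPM in WT, with a log2 difference of 0.78 (SE 0.10, edgeR adjusted p = 0.000626). Nrap, which takes part in the assembly of myofibrils, had 4.496 to 7.66 CPM in KO and 2.40 to 4.09 CPM in WT (log2 difference 0.79, SE 0.18, adjusted p = 0.0138). Klhl41 had 7.75 to 9.02 CPM in KO and 5.34 to 7.49 CPM in WT, a log2 difference of 0.45 (SE 0.11, adjusted p = 0.0171). Lmod3, a leiomodin that nucleates thin filaments in skeletal muscle and was named after its value was seen, had 1.17 to 1.56 CPM in KO and 0.128 to 0.836 CPM in WT (1.37, SE 0.33, adjusted p = 0.0196). The KO values of these 4 genes all exceeded the WT values, as for 7.38% of all tested genes, and none passed with KO as 1 sample (adjusted p = 0.999 for each). Klhl41 (0.0515) and Lmod3 (0.0536) did not pass without KO replicate 1, and Lmod3 (0.0503) did not without KO replicate 2.

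The most abundant genes of the same list did not pass. Myom1, myomesin of the M-band, had 844 to 857 CPM in KO and 902 to 1482 CPM in WT, and the KO libraries lay below the others, as for 7.22% of all tested genes (log2 difference -0.45, SE 0.14, edgeR adjusted p = 0.0520). Tcap, the titin cap protein, had 284 to 298 CPM in KO and 159 to 373 CPM in WT (0.29, adjusted p = 0.380). Per kilobase, Tcap had 307 CPM per kb in KO and 251 CPM per kb in WT, and Myom1 had 81.2 CPM per kb in KO and 111 CPM per kb in WT, far above their binding partner Ttn.

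In 5 other lists, 0 of 6 tested genes of the fast skeletal sarcomere, 0 of 8 of the slow skeletal and cardiac sarcomere, 0 of 11 of the sarcoplasmic reticulum and calcium release, 0 of 7 of muscle energy supply and 0 of 4 of cardiomyocyte regulators passed. Mylk2, the myosin light chain kinase of skeletal muscle, was the most abundant of the fast list at 64.4 ± 1.79 CPM in KO and 79.7 ± 27.3 CPM in WT (SD, n = 5 each). Over these lists the median log2 difference ran from -0.54 for energy supply, where Cox8b had 20.6 ± 0.798 CPM in KO and 37.1 ± 28.6 CPM in WT, to 0.13 for the sarcoplasmic reticulum list. The energy list summed to 95.2 to 107 CPM in KO and 111, 118, 88.3, 202 and 169 CPM in WT replicates 1 to 5, highest in the WT replicates 4 and 5 that also had the most brown adipocyte markers. Without those libraries its median was 0.21, the opposite sign, and without WT replicates 1 and 3 it was -0.38. What part brown adipocytes had in the energy list values was not tested. The median of the slow skeletal and cardiac list, 0.09 over all libraries, was -0.23 without WT replicates 4 and 5 and -0.29 without WT replicates 1 and 3. Many genes that define muscle fibres were close to absent. Of the 12 measured skeletal regulators 10 had at most 15 counts in every library, and Myod1 and Myog, the master regulators of skeletal muscle, had 0 or 1. The list of 7 skeletal fibre markers had a summed level of 2.998 to 3.55 CPM in KO and 2.35 to 4.84 CPM in WT, with 4 of 7 at 0 in some library and 5 of 7 at no more than 20 counts in any. The adult fast fibre heavy chains Myh1, Myh2 and Myh4 had at most 9 counts.

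The test was repeated without pairs of WT libraries that stood apart, a choice made after seeing the data. These fits kept the KO libraries separate and were not run with KO pooled, so their p-values rest on KO libraries this alike. Without WT replicates 1 and 3, 5 of the 8 genes passed: Casq1 (log2 difference 0.47), Tnnt3 (0.85) and Ckm (0.75) higher and Neb (-0.86) and Tnnt1 (-0.49) lower in KO, with 27.2% of all genes called. Without WT replicates 4 and 5, 1 of the 8, Tnnt1, passed, with 19.5% of all genes called. Markers of some other cells moved with the labels too: the 6 nerve markers summed to 39.6 to 43.5 CPM in KO and 15.01 to 22.5 CPM in WT, the 6 lymphocyte markers to 274 to 279 CPM in KO and 7.34 to 25.1 CPM in WT, and the 4 red cell genes to 18.7 to 21.0 CPM in KO and 63.7 to 309 CPM in WT. Of the 6 lymphocyte markers, 3 had at most 20 counts in any library, and the antibody chain genes Ighm and Igkc had the highest mean counts. What part these 3 lists had in the results above was not tested.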

How the data were processed

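The values deposited by the authors are raw counts of reads for each gene in 10 aorta libraries, 5 titled KO and 5 titled WT, not normalized. Per the labels' protocols, Trizol served for RNA extraction and an Illumina TruSeq kit for library preparation. Bowtie 0.12.2 and the mouse builds mm8 and mm9 are named, without their roles, per the submitters' processing notes. How reads were counted, with which annotation and strand setting, is not given in the sources used here. Coordinates, exon lengths, overlaps and shared 50-base stretches come from GENCODE M21 (GRCm38), which matched 35519 of 35667 identifiers; promoters come from RefSeq (GRCm38.p6).

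The main test was edgeR 4.0.16 (R 4.3.3) quasi-likelihood with robust estimation, TMM factors and filterByExpr (minimum count 10, minimum total 15) on all genes, 5 KO against 5 WT, with Benjamini-Hochberg adjustment over all tested genes and a threshold of 0.05. CPM are scaled by TMM. P-values set the difference between the groups only against the spread among these libraries, and in KO that spread may be technical. A second fit summed the KO counts into 1 sample. The edgeR, DESeq2 and limma-voom fits, and a fit with KO summed but without the low-count filter, were run on simulated counts. The simulation gave both groups the same spread, so it did not test the effect of KO libraries this alike. Alternatives were other scalings and filters, DESeq2 1.42.0, limma-voom (limma 3.58.1), a replicate block and leaving out libraries. The genes and lists were chosen with earlier results of these data known. Named genes are the 10, up to 3 of smallest p and 2 of highest mean count per muscle list, the 2 most abundant markers per list of other cells, the 3 nearest profiles per gene and Ovgp1; any other gene is named as an exception, after its values were seen, or as an overlapping copy or marker near 0. Of the 108 list genes, 107 were in the files. Values of some list genes are not reported here.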

Additional observations from a re-analysis of the deposited data

Results flagged for a closer look

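A library was singled out where its gap to the nearest of the other 4 of its group, divided by the range of the group, exceeded Dixon's 95% critical value of 0.71. Of 144 groups of 5 libraries tested over 72 genes, 12 met this, and chance gives about 1 in 20. WT replicate 2 accounted for 8 of them: Ttn at 5.69 CPM (next library 2.31), Myh6 at 59.8 CPM (10.9), Myl7 at 12.0 CPM (2.09), Sln at 2.65 CPM (0.325), Mb at 9.28 CPM (1.95), Mybpc3 at 1.97 CPM (0.418), Mybphl at 1.97 CPM (0.511) and Ncf1, a gene of nearest profile to Ttn, at 9.41 CPM (5.57). Ncf1 and others were drawn in by their likeness to Ttn or Myh6, and Mb, Mybpc3 and Mybphl were chosen after their values were seen, so these 8 are not independent of each other.

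WT replicate 1 was highest for Ankrd1 at 23.5 CPM (17.5) and for the cardiac transcription factor gene Tbx20 at 17.3 CPM (9.52). Rab20 was highest in WT replicate 4 at 3.87 CPM (2.69). Cth was lowest in KO replicate 1 at 1.12 CPM (1.77), the 1 such value among the KO libraries.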

How the results depend on the processing

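For all genes the count of 2242 became 1319 with the replicate block, 7 with KO counts summed into 1 sample and 4386 without WT replicates 1 and 3, and ran from 1287 to 2678 on leaving out 1 library, with 1287 to 1393 where that was a KO library. Of the 10 genes, 1 was called; 2 were called without the low-count filter and with DESeq2, 0 with KO summed, 5 without WT replicates 1 and 3, and 0 to 2 on leaving out 1 library. Of the 7 muscle lists, 5 were called; 8 were with the library total, 11 without the low-count filter, 10 with DESeq2, 3 with the replicate block, 0 with KO summed, 16 without WT replicates 1 and 3, 12 without WT replicates 4 and 5 (6 of them lower in KO), and 3 to 11 on leaving out 1 library, fewest without KO replicate 1 and most without WT replicates 2 (10) and 3 (11). With KO as 1 sample, 7 of all genes and 0 of the lists were called, against 125 and 1 without the low-count filter, and 1 to 5 of all genes on leaving out 1 WT library. The cause was not tested.

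Signs turned, in log2 differences, for Myh6 with limma-voom (1.68), with the replicate block (1.45) and without WT replicate 2 (1.88; range over single libraries left out -0.49 to 1.88), for Ttn without WT replicate 2 (0.18; range -0.40 to 0.18), and for Casq1 without WT replicates 4 and 5 (-0.28; range over single libraries left out -0.13 to 0.18). With KO as 1 sample the ranges were -0.49 to 1.87 for Myh6, -0.40 to 0.18 for Ttn and -0.14 to 0.17 for Casq1. The other 5 tested genes kept their sign under every alternative run.

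Same-numbered libraries of the groups did not deviate together (correlation of deviations from group means -0.04 to 0.04 over tested genes). KO deviations are little more than counting error, so this cannot decide whether the numbers pair the samples. Under the replicate block Tnnt1 passed (adjusted p = 0.0444) and Lmod3 (0.0595) and Klhl41 (0.0559) did not. Low depth limits Tnni1 and Myh7, with at most 12 counts in any library, and the SD of KO values covers little beyond counting error.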
